A study of Mus musculus with 8 samples.

Results

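Secretoglobins are small secreted proteins of the airway lining, and club cells, the secretory cells of the mouse bronchiole, are their main source in lung. Described here are 4 secretoglobin genes and 6 other genes used as markers of club cells outside detoxification: Scgb1a1, Scgb3a1, Scgb3a2, Scgb1c1, Cbr2, Gabrp, Lypd2, Cckar, Upk3a and Chad. They were chosen by name, and all 10 were found among the 43432 Ensembl genes of the count table. The list was drawn up as club cell secretoglobins with their receptors. None of the 10 is known as a secretoglobin receptor: Gabrp and Cckar encode receptors for GABA and for cholecystokinin.

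RNA was sequenced in 8 libraries of sorted lung cells from C57BL/6J mice aged 14 weeks. All cells were EpCAM+CD45-, a gate that keeps epithelium and leaves out leukocytes. Homozygous mice (C/C, n = 2) and heterozygous mice (C/+, n = 3) carried ChiaRed, a reporter of Chia1, the gene of acidic mammalian chitinase (AMCase), and only their ChiaRed+ cells were taken. Wild-type mice (WT, n = 3) without the reporter gave the whole gate. The WT libraries therefore differ from the others in sorting as well as in genotype, and these cannot be told apart. Nothing in the labels says that libraries came from separate mice, so each p-value reflects only how these samples spread, which may be technical.

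Library totals ran from 17057216 to 52319957 counts, so counting error is small above a few counts per 1e6 (CPM). Chia1 stood at 0.365 to 1.45 CPM in C/C, at 223 to 341 CPM in C/+ and at 267 to 454 CPM in WT. The alveolar type 2 marker Sftpc was abundant throughout, at 104300 to 166700 CPM. Xist and Y-linked Ddx3y counts marked 5 libraries as female (both C/C, C/+ 2, C/+ 3 and WT 1) and 3 as male. Mitochondrial genes took 4.92% and 6.67% of counts in C/C, 3.93% to 6.40% in C/+ and 2.90% to 3.31% in WT, and the part of this in any difference was not tested.

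Scgb1a1 encodes uteroglobin, also called club cell secretory protein, which forms dimers that hold small lipophilic molecules and is known to restrain airway inflammation. Scgb3a1 and Scgb3a2 encode related secreted proteins of the airway. Transcription of secretoglobin genes in lung is known to depend on FOXA factors, NKX2-1 and C/EBP factors, which club cells share with alveolar type 2 cells. Club cells also act as progenitors of the bronchiolar epithelium.

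Promoters were available for 6 of the 10 genes (RefSeq, GRCm38.p6). The 250 bases before the start are shown for 3 genes that differed strongly between groups (Scgb3a1, Gabrp and Chad) and for 2 that differed little (Scgb1c1 and Cbr2), so that both kinds can be set side by side. Sequences run 5′ to 3′ on the gene's strand, and capitals mark exact matches, on either strand, to a FOXA motif (TGTTTAC, its variant TGTTTGC, or a further variant TATTTAC), to an NKX2-1 motif (CAAGTG, with CTCAAG as its variant) or to a C/EBP motif (TTGCNNAA).
Scgb3a1 (chr11:49663345-49663594, plus strand): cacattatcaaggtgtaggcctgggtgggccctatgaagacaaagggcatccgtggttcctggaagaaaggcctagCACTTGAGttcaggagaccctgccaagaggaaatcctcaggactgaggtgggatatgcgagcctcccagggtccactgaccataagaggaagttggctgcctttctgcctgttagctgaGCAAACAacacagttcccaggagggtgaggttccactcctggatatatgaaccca
Gabrp (chr11:33578958-33579207, minus strand): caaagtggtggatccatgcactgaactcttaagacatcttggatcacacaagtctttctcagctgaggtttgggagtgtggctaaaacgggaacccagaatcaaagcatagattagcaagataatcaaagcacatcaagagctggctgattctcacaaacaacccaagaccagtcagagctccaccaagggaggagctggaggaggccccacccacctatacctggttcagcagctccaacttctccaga
Chad (chr11:94564797-94565046, plus strand): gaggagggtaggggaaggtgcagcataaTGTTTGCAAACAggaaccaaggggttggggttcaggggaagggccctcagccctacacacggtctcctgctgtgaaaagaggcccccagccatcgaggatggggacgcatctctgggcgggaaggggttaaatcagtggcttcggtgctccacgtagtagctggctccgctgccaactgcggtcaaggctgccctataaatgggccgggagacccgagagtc
Scgb1c1 (chr7:140845315-140845564, plus strand): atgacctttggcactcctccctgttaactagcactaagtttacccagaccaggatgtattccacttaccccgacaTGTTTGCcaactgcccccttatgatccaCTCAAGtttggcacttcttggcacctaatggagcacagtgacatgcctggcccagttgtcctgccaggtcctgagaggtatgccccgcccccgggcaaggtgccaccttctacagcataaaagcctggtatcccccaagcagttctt
Cbr2 (chr11:120732022-120732271, minus strand): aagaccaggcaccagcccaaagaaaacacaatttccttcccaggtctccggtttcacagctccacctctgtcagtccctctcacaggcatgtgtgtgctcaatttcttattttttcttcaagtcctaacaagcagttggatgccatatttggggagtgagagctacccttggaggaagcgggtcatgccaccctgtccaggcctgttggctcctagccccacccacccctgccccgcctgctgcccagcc

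The letters occurred among genes of both kinds. Scgb3a1 held TGTTTGC 55 bases before its start, on the opposite strand, and matches to CAAGTG and CTCAAG that overlapped each other. Chad held TGTTTGC on both strands in overlapping positions, 222 and 217 bases before its start. Scgb1c1, which differed little, also held TGTTTGC and CTCAAG, at 175 and 147 bases. No match lay in the windows of Gabrp and Cbr2, and Upk3a held CTCAAG and a C/EBP match. Over all 32851 promoters of the table, 4.3% held TGTTTGC, 9.73% any of the FOXA letters, 22.6% either NKX2-1 letters and 9.56% the C/EBP letters. The matches describe these windows only. The starts are those of RefSeq, whereas the gene positions given below are those of GENCODE M21. By the latter, the windows of Cbr2, Scgb1c1 and, by a few bases, Gabrp reach past the start into the gene. The windows are thus not equivalent upstream regions in every gene.

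The genes fell into a group that was high in C/+ libraries and a group that varied little. Scgb1a1, Scgb3a2, Scgb3a1, Gabrp and Chad were several-fold higher in C/+ than in WT and again lower in C/C than in C/+. Lypd2 had the same order of means with smaller fold changes that did not pass, whereas the differences of Cbr2, Scgb1c1 and Cckar were small and did not pass in any comparison of the fit by group alone. Upk3a was close to 0 throughout. In bulk RNA, fewer club cells and less RNA per club cell cannot be told apart.

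**Figure D1:**
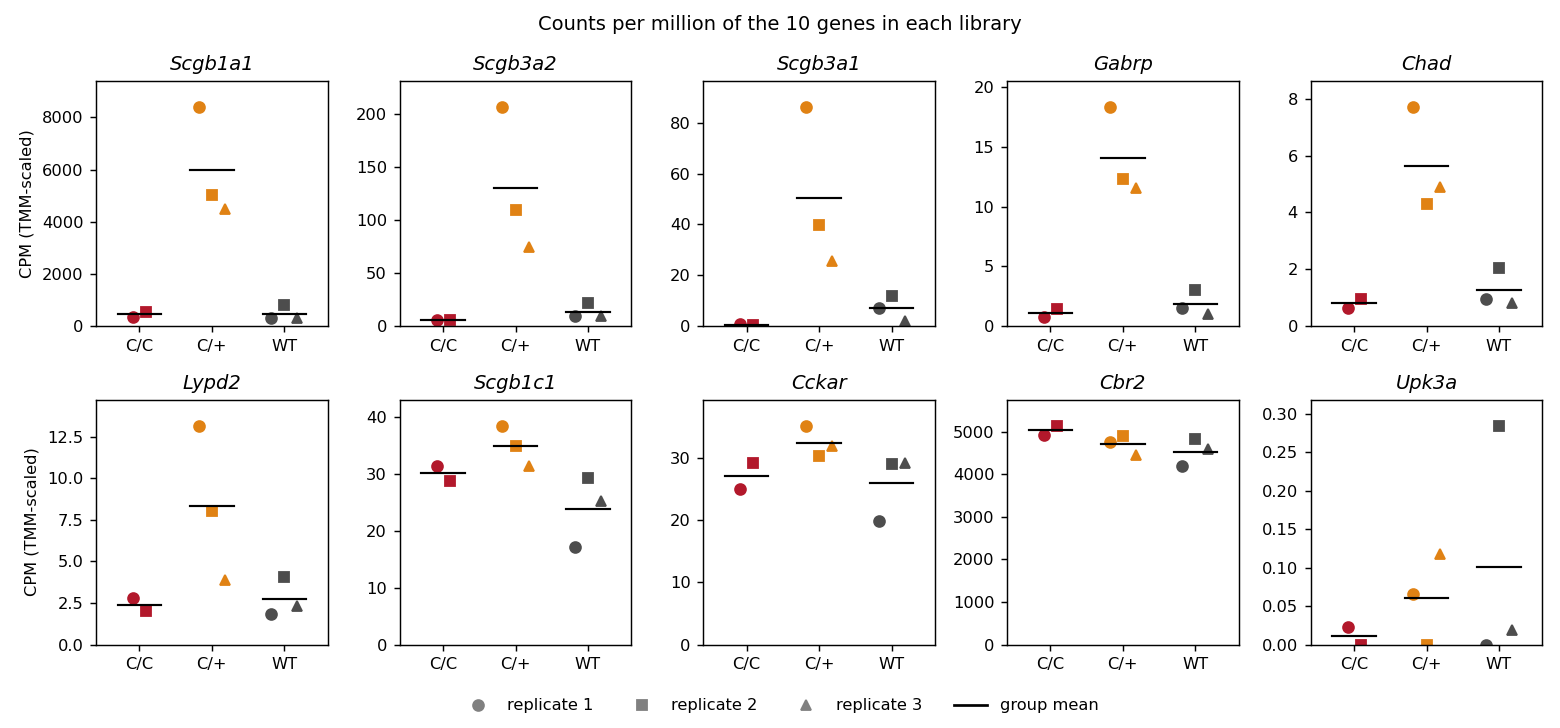
CPM (TMM-scaled, vertical axis from 0) of each gene in each library, by group (horizontal axis); points are libraries and bars are group means. All 3 C/+ libraries stand above every C/C and WT library for Scgb1a1, Scgb3a2, Scgb3a1, Gabrp and Chad, and the C/+ 1 library is highest in each of these 5 panels.

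Scgb1a1 (ENSMUSG00000024653, GRCm38 chr19:9083636-9087958, minus strand, 476 bases of exon) had 343 and 549 CPM in C/C, 8386, 5026 and 4480 CPM in C/+, and 291, 823 and 290.4 CPM in WT. Every C/+ library was above every other library, and the C/C and WT ranges overlapped. The gene alone took 0.0322% and 0.0502% of all counts in C/C, 0.447% to 0.851% in C/+ and 0.0299% to 0.0858% in WT. Ranked by reads scaled by exon length and library total (RPKM) among all genes of a library, it stood 34th and 24th in C/C, between 3rd and 6th in C/+ and between 22nd and 35th in WT.

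Scgb1a1 was 12.8-fold higher in C/+ than in WT (log2 fold change 3.67, SE 0.44, edgeR adjusted p = 0.00906) and fell in C/C relative to C/+ (-3.74, SE 0.52, edgeR adjusted p = 0.0027). Leaving out C/C 1 took the second value to -3.44 with edgeR adjusted p = 0.0554. Between C/C and WT the gene had a log2 fold change of -0.07 (SE 0.44, edgeR adjusted p = 0.951).

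Scgb3a2 (ENSMUSG00000038791, GRCm38 chr18:43764289-43767399, plus strand) encodes a secretoglobin of the bronchial and bronchiolar lining, also known as uteroglobin-related protein. It had 6.01 and 5.21 CPM in C/C, 206, 109 and 74.1 CPM in C/+, and 9.43, 21.96 and 9.18 CPM in WT. The groups did not overlap in any of the 3 comparisons. Scgb3a2 was 9.82-fold higher in C/+ than in WT (log2 fold change 3.30, SE 0.42, edgeR adjusted p = 0.00906). In C/C it was lower than in C/+ (-4.53, SE 0.53, edgeR adjusted p = 0.00141), and against WT it had -1.24 (SE 0.47, edgeR adjusted p = 0.16), which did not pass except without a low-count filter (edgeR adjusted p = 0.000122).

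Scgb3a1 (ENSMUSG00000064057, GRCm38 chr11:49663610-49665118, plus strand), whose protein is known in human airway as a secreted cytokine-like secretoglobin, had the lowest log2 fold changes of the 9 tested genes in both comparisons of C/C. It had 0.596 and 0.208 CPM in C/C (26 and 8 counts), 86.1, 39.7 and 25.7 CPM in C/+, and 7.13, 11.9 and 1.88 CPM in WT. C/C libraries were thus below all WT libraries, and WT libraries below all C/+ libraries. The log2 fold change was 2.92 for C/+ against WT (SE 0.60, edgeR adjusted p = 0.0302) and -6.93 for C/C against C/+ (SE 0.95, edgeR adjusted p = 0.00244). It was -4.02 for C/C against WT (SE 0.91, edgeR adjusted p = 0.0471), the one call among the 10 genes in that comparison.

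The calls of Scgb3a1 against WT hang on single libraries. For C/+ against WT the edgeR adjusted p was 0.1 without C/+ 1 (log2 fold change 2.28), 0.0695 without C/+ 2 and 0.0539 without WT 1. For C/C against WT it was 0.266 without C/C 1, 0.274 without C/C 2, 0.0736 without C/+ 2, 0.0686 without WT 1 and 0.11 without WT 2, with log2 fold changes of -4.99 to -3.42 over all 8 omissions. The lower level in C/C than in C/+ passed in each of them.

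Scgb1c1 (ENSMUSG00000038801, GRCm38 chr7:140845547-140846769, plus strand) is a secretoglobin best known from rat olfactory mucosa. In both comparisons with C/+ its differences had the same direction as those of the other 3 but were far smaller. It had 31.4 and 28.8 CPM in C/C, 38.4, 34.9 and 31.3 CPM in C/+, and 17.2, 29.3 and 25.2 CPM in WT. Every C/+ library was above every WT library, and the C/C range overlapped with both. Its log2 fold change was 0.55 for C/+ against WT (SE 0.17, edgeR adjusted p = 0.111), -0.22 for C/C against C/+ (SE 0.20, edgeR adjusted p = 0.599) and 0.34 for C/C against WT (SE 0.19, edgeR adjusted p = 0.335). The first passed by DESeq2 (adjusted p = 0.0448), without a low-count filter (0.0103) and with sex as a covariate (0.00964), and the third with sex as a covariate (log2 fold change 0.65, edgeR adjusted p = 0.0351). An antisense gene, C330022C24Rik, overlaps it and shares 9.11% of its 50-base stretches, but held 3 counts or fewer in every library. A protein-coding gene, Gm45785, also overlaps it on the opposite strand but shares no such stretch. Gm45785 is not among the genes counted, so its level is not known here, and the strand setting of the counting is not given.

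The 4 secretoglobins were the only genes of their family with any count: the other 65 Scgb rows of the table held 0 counts in all 8 libraries. A count of 0 allows up to 0.0558 to 0.176 CPM per library (3 counts, counting error only). Whether reads of these 65 genes could be told apart from one another was not checked, and reads that could not may be missing. Scgb1a1 supplied 90.0% and 94.1% of secretoglobin counts in C/C, 96.2% to 97.2% in C/+ and 88.9% to 92.9% in WT. Relative to Scgb1a1, the log2 level of Scgb3a1 was -9.03 and -11 in C/C, -7.44 to -6.60 in C/+ and -7.23 to -5.34 in WT. For Scgb3a2 the same log2 ratio was -6.70 and -5.82 in C/C, -5.92 to -5.35 in C/+ and -5.22 to -4.94 in WT. Both ratios were lower in each C/C library than in each WT library, and that of Scgb3a2 was also lower in each C/+ library. Gabrp and Chad too had lower ratios to Scgb1a1 in each C/C and each C/+ library than in each WT library. The ratios of Scgb1c1, Cbr2, Lypd2 and Cckar overlapped between C/C and WT. These differences in ratio were not tested.

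Gabrp (ENSMUSG00000020159, GRCm38 chr11:33550781-33578959, minus strand) encodes the pi subunit of the GABA type A receptor, a chloride channel subunit found mainly in epithelia. It had 0.734 and 1.41 CPM in C/C, 18.3, 12.4 and 11.6 CPM in C/+, and 1.52, 3.04 and 0.985 CPM in WT. C/+ libraries were all above the rest, and C/C and WT overlapped. It was 7.99-fold higher in C/+ than in WT (log2 fold change 3.00, SE 0.40, edgeR adjusted p = 0.01) and lower in C/C than in C/+ (-3.73, SE 0.49, edgeR adjusted p = 0.00223). Both calls were kept without any single library, with log2 fold changes of 2.67 to 3.50 and -4.26 to -3.32.

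The other genes of the GABA type A system were mostly too low to be tested. Of 22 listed subunits, synthesis enzymes and transporters, 5 were tested and 17 were too low. Gabre, the epsilon subunit, was the most abundant, at 37.5 ± 3.94 CPM in C/C (SD, n = 2), 34.9 ± 5.65 CPM in C/+ and 34.9 ± 8.55 CPM in WT (SD, n = 3 each), with a log2 fold change of -0.01 for C/+ against WT (SE 0.17). Gabra3, an alpha subunit, was the one member called, lower in C/C than in C/+ (-4.61, edgeR adjusted p = 0.0283), on 4 counts in C/C and 89 in C/+. For C/+ against WT Gabra3 had a log2 fold change of 2.97 (SE 0.80, edgeR adjusted p = 0.0711), which did not pass.

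Chad (ENSMUSG00000039084, GRCm38 chr11:94565047-94569127, plus strand) encodes chondroadherin, a leucine-rich repeat matrix protein first known from cartilage. It had 0.642 and 0.964 CPM in C/C, 7.70, 4.29 and 4.88 CPM in C/+, and 0.956, 2.04 and 0.799 CPM in WT. It was 4.62-fold higher in C/+ than in WT (log2 fold change 2.21, SE 0.40, edgeR adjusted p = 0.0187) and lower in C/C than in C/+ (-2.81, SE 0.48, edgeR adjusted p = 0.00631). The first had edgeR adjusted p = 0.076 without C/+ 1 and 0.067 without WT 3, and the second 0.101 without C/C 1 and 0.0587 without C/C 2. Chad lies on the opposite strand of Acsf2, and the strand setting of the counting is not given in the sources used here, so reads of the pair may not have been told apart. Acsf2 was at 4.11 and 4.12 CPM in C/C, 5.82 to 7.09 CPM in C/+ and 3.46 to 4.76 CPM in WT, with smaller log2 fold changes of 0.72 and -0.69 in the same comparisons.

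Of 8 small leucine-rich proteoglycans tested, a related matrix family, 4 rose in C/+ relative to WT and 4 fell in C/C relative to C/+, Bgn, Dcn, Prelp and Ogn in each comparison. The other 4 were not called, and Chadl, chondroadherin-like, had log2 fold changes of -0.36 and 0.03. These are stromal genes: Bgn, biglycan, had log2 fold changes of 2.39 (edgeR adjusted p = 0.01) and -2.92 (0.00222). Bgn and Dcn are counted again among the mesenchymal markers below.

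Lypd2 (ENSMUSG00000022595, GRCm38 chr15:74732247-74734329, minus strand), a membrane-anchored protein of the Ly6 and PLAUR domain family, had 2.80 and 2.01 CPM in C/C, 13.2, 8.02 and 3.88 CPM in C/+, and 1.83, 4.03 and 2.34 CPM in WT. C/+ 3 was low and overlapped with WT. The log2 fold changes of 1.65 for C/+ against WT (SE 0.43, edgeR adjusted p = 0.0603) and -1.81 for C/C against C/+ (SE 0.49, edgeR adjusted p = 0.054) did not pass. DESeq2 called both (adjusted p = 0.00165 and 0.0012). So did edgeR without C/+ 3 (0.0168 and 0.0101), without a low-count filter (5.77e-05 and 9.05e-05) and with sex as a covariate (0.00763 and 0.0476). Of 15 alternatives, 4 called the first and 6 the second. Of its 8 tested relatives, 2 were called higher in C/+ than in WT and 3 lower in C/C than in C/+. Slurp1, a secreted protein of the same fold, rose in C/+ relative to WT (3.81, edgeR adjusted p = 0.0219) and fell in C/C relative to C/+ (-4.43, edgeR adjusted p = 0.0126).

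Cckar (ENSMUSG00000029193, GRCm38 chr5:53697776-53707705, minus strand) encodes the type A cholecystokinin receptor, a G protein-coupled receptor for a gut peptide hormone. It had 25.03 and 29.2 CPM in C/C, 35.1, 30.2 and 31.9 CPM in C/+, and 19.8, 28.98 and 29.1 CPM in WT. The values were close to one another, with C/+ above the rest by a small margin. The log2 fold change was 0.32 for C/+ against WT (SE 0.15, edgeR adjusted p = 0.274), -0.26 for C/C against C/+ (SE 0.17, edgeR adjusted p = 0.449) and 0.06 for C/C against WT (SE 0.17, edgeR adjusted p = 0.868). With sex as a covariate the first was 0.46 and passed (edgeR adjusted p = 0.0343). The peptide gene Cck held 6 counts in 1 C/C library and 0 in the other 7, and the other receptor gene, Cckbr, had 0 counts in all 8 libraries.

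Cbr2 (ENSMUSG00000025150, GRCm38 chr11:120729489-120732114, minus strand) encodes a mitochondrial carbonyl reductase of mouse lung. It had 4928 and 5136 CPM in C/C, 4756, 4904 and 4450 CPM in C/+, and 4182, 4825 and 4584 CPM in WT. The log2 fold change was 0.05 for C/+ against WT (SE 0.10), 0.10 for C/C against C/+ (SE 0.11) and 0.15 for C/C against WT (SE 0.11), with edgeR adjusted p of 0.804, 0.697 and 0.47. Cbr2 thus ranked 9th to 15th per length in every library without the C/+ excess of Scgb1a1. The log2 ratio of Cbr2 to Scgb1a1 was 3.23 and 3.84 in C/C, -0.82 to -0.01 in C/+ and 2.55 to 3.98 in WT. Cbr2 shares 12.1% of its 50-base stretches with Gm11771, which held 6 counts or fewer in each library. Of 6 other carbonyl reductase genes tested, edgeR called 0 in any comparison and DESeq2 called 0, 0 and 0, and 0, 0 and 1 had a raw p under 0.05 for C/+ against WT, C/C against C/+ and C/C against WT.

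Upk3a (ENSMUSG00000022435, GRCm38 chr15:85017141-85022547, plus strand), a membrane protein of the urothelium, is known in mouse airway as a marker of a club cell subset near neuroepithelial bodies. It had 1 and 0 counts in C/C, 2, 0 and 2 in C/+, and 0, 6 and 1 in WT. It was too low to be tested, and at this depth no difference was detectable. Of 3 other uroplakins tested, 2 were called higher in C/+ than in WT and lower in C/C than in C/+. These 2, Upk3b and Upk1b, are counted again among the mesothelial markers below. Upk3b, a mesothelial marker, was at 2.58 ± 0.0782 CPM in C/C (SD, n = 2), 32.8 ± 19.98 CPM in C/+ and 5.19 ± 3.23 CPM in WT (SD, n = 3 each).

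In counts, 5 of the 9 tested genes were called higher in C/+ than in WT and 0 lower, while edgeR called 3.42% of all 14906 tested genes higher and 0.503% lower. Without C/+ 1, 3 of the 9 were called. In C/C against C/+, 5 of 9 were called lower and 0 higher, while 5.33% of all tested genes fell and 1.75% rose; without C/C 1, 3 of the 9 were called. In C/C against WT, 1 of 9 was called lower and 0 higher, while 1.36% of tested genes fell and 1.62% rose. The median log2 fold change of the 9 was 2.21, -2.81 and -0.16 in these comparisons, and that of all tested genes 0.005, -0.008 and -0.026.

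Ranges that did not overlap were common among all genes. C/+ stood above WT for 7 of the 10 genes and below for 0, while this held for 14.1% and 10.7% of tested genes. C/C stood below C/+ for 7 and above for 1, Cbr2, while this held for 20.2% and 18.1% of tested genes. C/C stood below WT for 2, Scgb3a1 and Scgb3a2, and above for 1, Cbr2, while this held for 22.6% and 20.8% of tested genes. Each group enters 2 of the 3 comparisons, so C/+ libraries that are high enter C/+ against WT and C/C against C/+ with opposite sign.

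**Figure D2:**
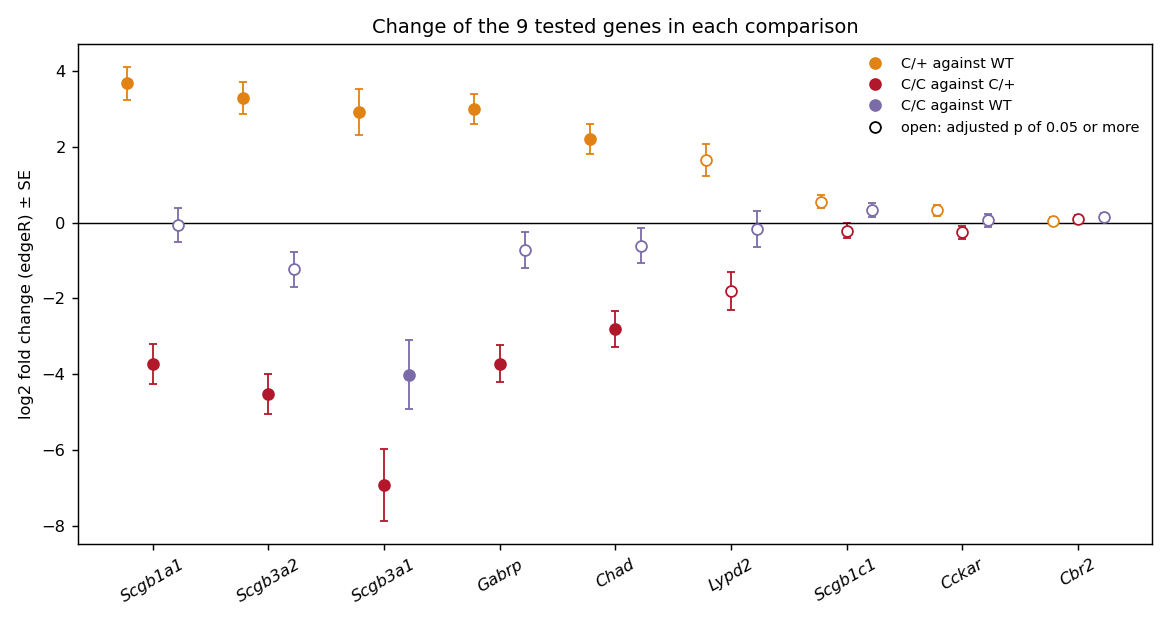
Log2 fold change (edgeR fit, vertical axis) with its SE for the 9 tested genes (horizontal axis) in 3 comparisons; filled points have an adjusted p under 0.05. Scgb1a1, Scgb3a2, Scgb3a1, Gabrp and Chad are filled above 0 for C/+ against WT and below 0 for C/C against C/+, and Scgb3a1 at -4.02 is the one filled point for C/C against WT.

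Per exon length, the order of levels differed between groups. In C/C the order was Cbr2 at 3790 RPKM, Scgb1a1 at 937, Scgb1c1 at 66.1, Cckar at 7.36, Scgb3a2 at 6.38, Lypd2 at 3.54, Scgb3a1 at 0.673, Chad at 0.478, Gabrp at 0.317 and Upk3a at 0.0105 RPKM. In C/+, Scgb1a1 led at 12500 RPKM, followed by Cbr2 at 3540, Scgb3a2 at 147, Scgb3a1 at 84.5 and Scgb1c1 at 76.7 RPKM. In WT, Cbr2 at 3410 RPKM was above Scgb1a1 at 983, Scgb1c1 at 52.5, Scgb3a2 at 15.4 and Scgb3a1 at 11.7 RPKM. Among neighbours in this order, the library ranges of Scgb3a2 and Scgb3a1 overlapped in C/+ and in WT, and those of Scgb3a1 and Scgb1c1 in C/+. In C/C those of Scgb3a1 and Chad overlapped. Ranges of Gabrp and Chad overlapped in all 3 groups, as did those of Cckar with its neighbour Scgb3a2 in C/C, Lypd2 in C/+ and both Scgb3a1 and Lypd2 in WT. The leading pair of each group did not overlap. RPKM here is TMM-scaled and rests on merged exon lengths of GENCODE M21.

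**Figure D3:**
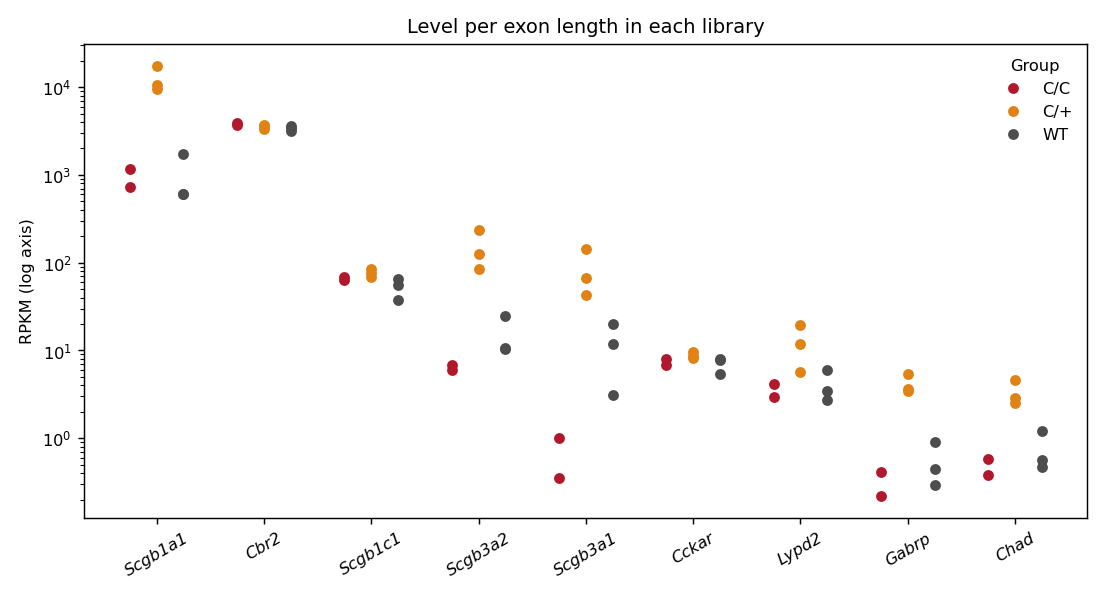
RPKM (log axis) of 9 genes in each library, with C/C, C/+ and WT from left to right within a gene; Upk3a, at 0 in 3 libraries, is left out. Scgb1a1 is above Cbr2 in all 3 C/+ libraries and below it in the C/C and WT libraries, and Scgb3a1 spans the widest range.

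Across the 8 libraries, log2 CPM of Scgb1a1 had Pearson r of 0.98 with Gabrp, 0.98 with Chad, 0.96 with Scgb3a2, 0.89 with Lypd2 and 0.80 with Scgb3a1. It had r of 0.73 with Scgb1c1, 0.74 with Cckar and 0.12 with Cbr2. Gabrp and Chad were the closest pair (r = 0.99). These values describe 8 libraries in which the C/+ group stands apart from the rest. Of 9 tested genes, Cbr2 had its highest r, 0.67, with Scgb1c1.

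**Figure D4:**
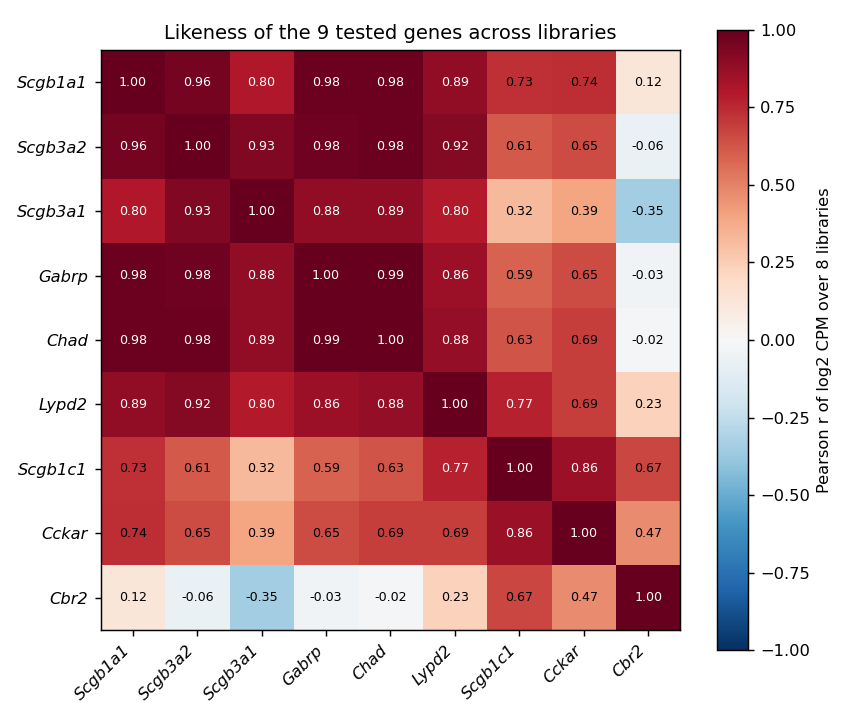
Pearson r of log2 CPM between the 9 tested genes over 8 libraries (colour scale from -1 to 1, values printed in the cells). Scgb1a1, Scgb3a2, Scgb3a1, Gabrp, Chad and Lypd2 form a block with r of 0.795 or more, and Cbr2 has r from -0.35 to 0.23 with them.

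Genes outside the list that were most like the 3 most abundant members were sought among 8768 tested genes with a group mean of at least 10 CPM. Closest to Scgb1a1 were Cyp2f2, a cytochrome P450 of club cells (r = 0.99), Mgp, matrix Gla protein (r = 0.98), and Serping1, the complement C1 inhibitor (r = 0.98). Closest to Scgb3a2 were Pkhd1l1, Gsto1 and Serping1, each with r of 0.99. Closest to Cbr2 were Pmm1, Zfp524 and Map2k2 (r = 0.98, 0.97 and 0.96). Each r was taken over 8 libraries.

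Other airway secretory genes shared the pattern in part. Of 16 other club genes, 4 were called higher in C/+ than in WT and 0 lower, and 6 were called lower in C/C than in C/+. In C/C against WT 1 was called higher, Hp (log2 fold change 0.55, edgeR adjusted p = 0.0392), and 0 lower. Bpifa1, a secreted surfactant-like airway defence protein, was at 0.233 ± 0.255 CPM in C/C (SD, n = 2), 80.5 ± 72.9 CPM in C/+ and 3.69 ± 2.96 CPM in WT (SD, n = 3 each). Its log2 fold change was 4.51 for C/+ against WT (edgeR adjusted p = 0.0205) and -8.36 for C/C against C/+ (0.00502). Of 20 club detoxification genes, 9 were called higher in C/+ than in WT and 8 lower in C/C than in C/+. Cyp2f2, at 107 and 123.4 CPM in C/C, 414 to 648 CPM in C/+ and 100.3 to 188 CPM in WT, had log2 fold changes of 1.87 and -2.12.

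Club regulators were called in both directions. Of 16 club regulators, 1 was called higher in C/+ than in WT, Hey1, a Notch target gene that endothelium also uses (log2 fold change 2.95, edgeR adjusted p = 0.0187). In C/C against C/+, Elf3 and Cebpd rose (0.38 and 1.46) while Hey1 and Sox2, an airway lineage factor, fell (-3.84 and -2.46, edgeR adjusted p = 0.00635 and 0.00359). Of all tested genes, 1.75% rose and 5.33% fell in that comparison. In C/C against WT, 3 of the 16 regulators rose and 1 fell, while 1.62% of all tested genes rose and 1.36% fell. Cebpd and Cebpb, both C/EBP factors, and Elf3 rose (1.60, 1.18 and 0.42, edgeR adjusted p = 0.0159, 0.046 and 0.0392), and Sox2 fell (-1.64, edgeR adjusted p = 0.0428). Nkx2-1, which drives both airway and alveolar programmes, was at 629 ± 74.2 CPM in C/C (SD, n = 2), 653 ± 129 CPM in C/+ and 626 ± 26.5 CPM in WT (SD, n = 3 each). Nkx2-1 had a log2 fold change of 0.06 for C/+ against WT (SE 0.14) and -0.05 for C/C against C/+ (SE 0.16).

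Of 4 proteins reported to bind secretoglobins, Lrp2 (megalin, an endocytic receptor) was at 434 ± 31.8 CPM in C/C (SD, n = 2), 390 ± 99.1 CPM in C/+ and 437 ± 59.8 CPM in WT (SD, n = 3 each). Lmbr1l was at 24.4 ± 0.720, 24.6 ± 1.13 and 23.2 ± 2.00 CPM in the same groups. In every comparison edgeR called 0 of the pair, DESeq2 called 0, and 0 had a raw p under 0.05. Marco, a macrophage scavenger receptor, and Cubn, the partner of megalin, held 10 counts or fewer in every library and were not tested.

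Summed endothelial, mesothelial and mesenchymal markers were also highest in the C/+ libraries, but the order within groups differed in part. In WT 1, WT 2 and WT 3 the endothelial sum was 341, 149 and 79.6 CPM. Scgb1a1 and the mesothelial and mesenchymal sums were instead highest in WT 2. Of 12 endothelial markers, 11 were called higher in C/+ than in WT and 12 lower in C/C than in C/+. Their summed level was 61.8 and 70.3 CPM in C/C, 648 to 1082 CPM in C/+ and 79.6 to 341 CPM in WT. Mesothelial markers, with 5 of 7 called higher and 6 of 7 lower, summed to 84.8 to 84.9 CPM in C/C, 114.6 to 264 CPM in C/+ and 49.9 to 80.5 CPM in WT. Krt19 was the most abundant of them, at a mean of 64.28 CPM over all libraries, and weighs most in these sums. For C/C against WT its log2 fold change was 0.60, whereas the median of the 7 was -1.28, and 0 were called. Mesenchymal markers, with 5 of 10 tested called higher and 6 lower, summed to 15.3 and 19.2 CPM in C/C, 85.3 to 229 CPM in C/+ and 17.1 to 45 CPM in WT. No marker of these 3 lists was at 0 in all libraries of a group. C/+ 1, the library with the most of each strongly differing secretoglobin, also had the highest mesothelial and mesenchymal sums, and C/+ 2 had the highest endothelial sum. In C/C, 7 of 12 immediate early genes were called higher than in C/+ and 2 higher than in WT. Their sums were 12470 and 15690 CPM in C/C, 4033 to 6729 CPM in C/+ and 3100 to 9050 CPM in WT. The part of any of these in the secretoglobin differences was not tested.

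Markers of other epithelial cells differed between lists. Of 14 alveolar type 2 markers, edgeR called 0 in any comparison, whereas 4, 1 and 5 had a raw p under 0.05 for C/+ against WT, C/C against C/+ and C/C against WT, and DESeq2 called 1, 0 and 4. Their summed level was 303800 and 311100 CPM in C/C, 267800 to 279100 CPM in C/+ and 229200 to 261000 CPM in WT. Of 11 ciliated markers, edgeR called 0 in C/+ against WT, with 0 at a raw p under 0.05 and 0 called by DESeq2. By edgeR, 2 fell in C/C relative to C/+ and 3 in C/C relative to WT, Foxj1, Ccdc39 and Dnah9 (log2 fold changes -1.92, -1.82 and -2.40). Of 10 alveolar type 1 markers, 1 was called in C/+ against WT, Rtkn2, which fell (-1.34, edgeR adjusted p = 0.0181). In C/C against C/+, Rtkn2 rose (1.08, edgeR adjusted p = 0.0312) and Pdpn fell (-1.61, edgeR adjusted p = 0.0331), and in C/C against WT Clic5 fell (-0.54, edgeR adjusted p = 0.0488). Of 5 goblet markers tested, 2 fell in C/C relative to C/+, Clca1 and Tff2 (log2 fold changes -6.36 and -6.01, edgeR adjusted p = 0.0321 and 0.0305), on 3 and 2 counts in C/C and 262 and 142 in C/+. The fitted size of both rests on these few counts in C/C, and Tff2 was also counted among the other club genes above. Basal, neuroendocrine and leukocyte lists, with 2, 4 and 5 tested genes, had 0 called by edgeR in any comparison. A raw p under 0.05 was found for 0, 0 and 1 of them in C/+ against WT, 0, 1 and 0 in C/C against C/+, and 0, 1 and 1 in C/C against WT. DESeq2 called 1 neuroendocrine gene in C/C against C/+ and 0 in the other cases.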

How the data were processed

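The authors deposited one table of unnormalised read counts, in whole numbers, with 43432 mouse Ensembl genes and 8 libraries. The submitters' processing notes name STAR 2.4.2a, DESeq2 and the build GRCh38, which is human although the identifiers are of mouse; the counter, strand setting and annotation are not given in sources used here. Per the labels' protocols, RNA was treated with DNase and made into stranded mRNA libraries. Columns were matched to samples by the allele and replicate number in their names. Symbols, positions and merged exon lengths came from GENCODE M21 (GRCm38), which named 42462 identifiers.

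After filterByExpr (14906 genes left) and TMM scaling (factors 0.915 to 1.06), edgeR 4.0.16 in R 4.3.3 fitted group means to the 8 libraries with its quasi-likelihood method. Contrasts were tested two-sided, and a gene was called when its p, adjusted after Benjamini and Hochberg over all tested genes, was under 0.05. CPM and RPKM are TMM-scaled, and log2 CPM for correlations used a prior count of 2. The method was tested on simulated counts. Libraries of a group always differed beyond sampling noise, with a chi-square per gene of 11.8 to 71.4. As alternatives, the fit was repeated with size factors and with the Wald test of DESeq2 1.42.0, with other filters, on the compared groups alone, with a replicate block, with sex as a covariate (read from Xist and Ddx3y), and without each library. Named genes are the 10 members, up to 4 called or 2 uncalled genes of highest CPM per list, and the 3 genes most like each of the 3 most abundant members. Nkx2-1, Cck, Cckbr, Marco, Cubn, Chadl and Acsf2 were named after their values were seen. The members, lists and tests were chosen with earlier results of these data known.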

Additional observations from a re-analysis of the deposited data

How the results depend on the processing

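Limits first: C/C has 2 libraries, sexes are unevenly spread over groups, and the lowest genes (Upk3a, Scgb3a1 in C/C) rest on few counts. Numbers of the 10 genes called were 5, 5 and 1 for C/+ against WT, C/C against C/+ and C/C against WT. Over the 8 fits that each left out 1 library they ran from 3 to 6, 3 to 6 and 0 to 1. With sex as a covariate 8 were called in C/+ against WT and 2 in C/C against WT, and without a low-count filter 2 in C/C against WT. Over all genes, C/+ against WT had 585 calls, 1233 by DESeq2, 1299 without a filter, 356 with the compared groups alone, 1700 after adding sex (1047 of them higher and 653 lower, against 510 and 75), and 103 to 729 without 1 library. C/C against C/+ had 1056 calls, 1588 by DESeq2, 1614 without a filter and 185 to 1308 without 1 library. C/C against WT had 444 calls, 1422 by DESeq2, 1456 without a filter, 1348 with sex as a covariate, 176 with a replicate block and 30 to 782 without 1 library. The cause of these shifts was not tested. Same-numbered libraries did not deviate together (correlations of deviations -0.206 to 0.087), so the numbers were not taken to pair libraries; with the replicate block the numbers of the 10 genes called were again 5, 5 and 1.

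Of the refitted log2 fold changes of the 9 tested genes, 367 kept sign and call, 16 gained a call, 13 lost it and 9 changed sign, all of changes that were not called. Scgb1a1 in C/C against WT was 0.58 with sex as a covariate, 0.23 without C/C 1 and 0.62 without WT 2 (-0.45 to 0.62 without 1 library). Lypd2 in C/C against WT was 0.52 with sex as a covariate, 0.06 without C/C 2 and 0.20 without WT 2 (-0.42 to 0.20). Cckar in C/C against WT was -0.05 without C/C 2 and -0.12 without WT 1 (-0.12 to 0.17), and Cbr2 in C/+ against WT was -0.003 without WT 1 (-0.003 to 0.10). The calls of Scgb3a2 and Gabrp, in both comparisons with C/+, passed under all 15 alternatives.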
